A study of Mus musculus with 20 samples.

Results

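The colony-stimulating factor axis was described through 5 genes of the 39017 in the count table: the receptors Csf1r, Csf2ra, Csf2rb and Csf3r and the ligand Il34. They were chosen by symbol and each was found once. The study asked how microglia and astrocytes differ in their transcription 7 days after a traumatic brain injury. Adult male C57BL/6J mice received either a lateral fluid percussion injury (FPI), a fluid pulse onto the exposed dura, or a sham operation with the craniectomy but no pulse. Microglia (CD11b+, CD45 intermediate) and astrocytes (ACSA-2+) were sorted from the forebrain on the injured side and sequenced as bulk RNA. There were 4 groups of 5 libraries, each library from a single animal: sham microglia, FPI microglia, sham astrocytes and FPI astrocytes. None of the mice carried an allele or a drug that the labels name. The sham mice had the same anesthesia and skull opening as the FPI mice, so the contrast is of the pulse alone.

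The CSF1 receptor is a tyrosine kinase that macrophages need for survival, and microglia are among the cells that depend on it most. CSF1 and IL-34 are its ligands; they are unrelated in sequence, and in the brain IL-34 is known mainly as a product of neurons and CSF1 as a product of glia. The other receptors belong to the cytokine receptor family: the GM-CSF receptor is an α chain (Csf2ra) with the common β chain (Csf2rb), which the IL-3 and IL-5 receptors share, and Csf3r encodes the G-CSF receptor.

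Total counts ran from 5623349 to 13110857 in the microglia libraries and from 6470553 to 10917112 in the astrocyte libraries. Levels are given in CPM, the counts of a gene scaled to a common library total, on one scale over the 20 libraries, as mean ± SD with n = 5 a group. Values per kilobase of exon (RPKM) are used where the levels of genes are compared with each other, and comparisons by reads are named as such. The 8 microglial markers summed to between 11455 and 19306 CPM in the microglia and to between 103 and 228 CPM in the astrocytes. The 8 astrocyte markers summed to between 9476 and 29319 CPM in the astrocytes and to between 242 and 579 CPM in the microglia. The 2 kinds of library were thus told apart. The astrocyte libraries also carried oligodendrocyte markers (6 genes, 1620 to 17215 CPM summed). In the astrocyte libraries numbered 4 this sum was above that of the astrocyte markers. It was 17215 beside 9476 CPM in sham and 10911 beside 10826 CPM in FPI, so these libraries were not of astrocyte RNA alone. FPI astrocyte library 5 is named in the form used for microglia and shares its animal number with FPI astrocyte library 2. The label was followed, but the 5 FPI astrocyte libraries may come from 4 animals. In bulk RNA, fewer cells of a type and less RNA per cell cannot be told apart.

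Every member differed between the cell types. The 4 receptors were higher in microglia and Il34 was higher in astrocytes, 5 of 5 members called, against a background of 64.2% of 15077 genes (adjusted p below 0.1 and a log2 fold change beyond 0.6 in edgeR, the cell type means taken over both conditions). No microglia library overlapped with an astrocyte library for any of the 5 genes. The share of all genes without such overlap is not given here, so this is no trait particular to the members. Within each cell type the sham and FPI ranges overlapped for all 5, so the order of the 4 groups was settled between the cell types and not within them.

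**Figure D1:**
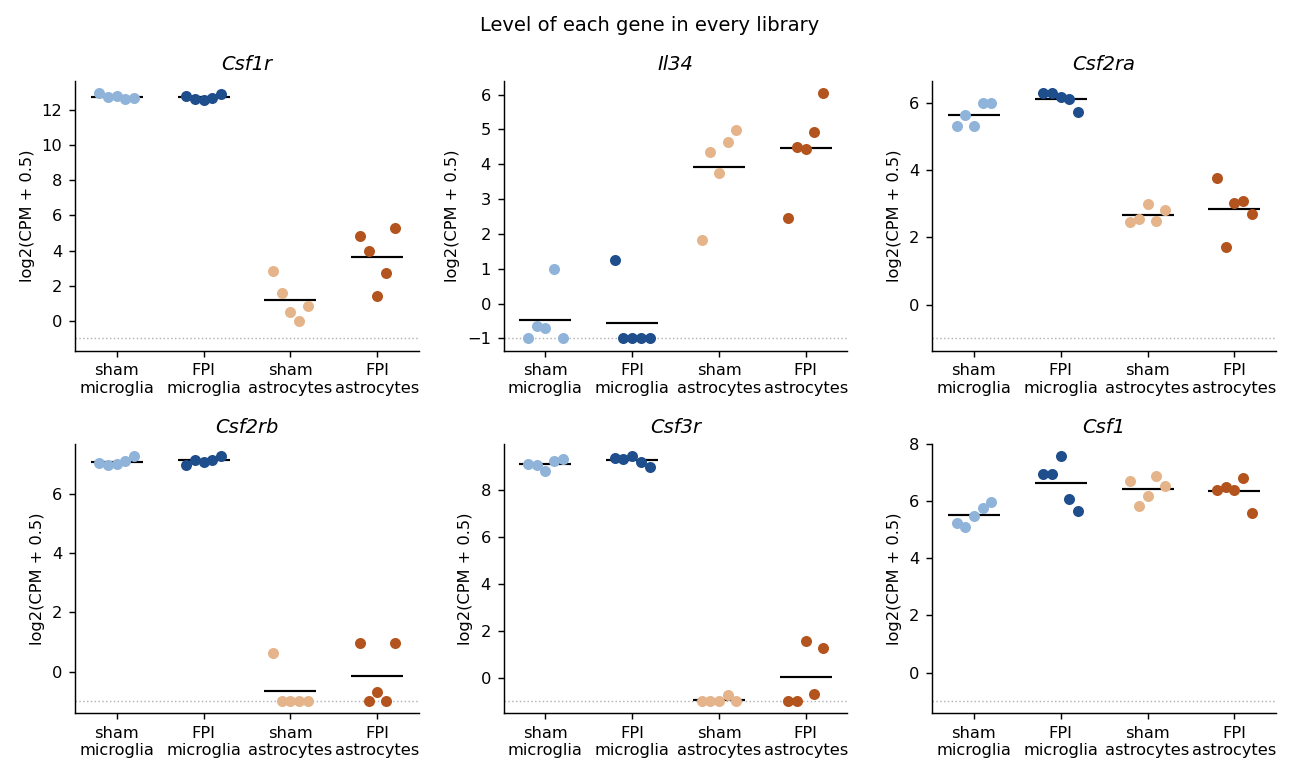
Level of the 5 genes and of Csf1 in each of the 20 libraries, on the y axis as log2(CPM + 0.5); points are libraries in the order of their replicate numbers, black lines are group means and the dotted line is a level of 0. Csf2rb and Csf3r were near 0 in astrocytes and Il34 near 0 in microglia, Csf1r was low in sham astrocytes and reached 38.2 CPM in FPI astrocytes, Csf2ra was found in every library of both cell types and Csf1 lay in the same range in both.

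Csf1r (chromosome 18, 61100598 to 61132149 of GRCm38, plus strand) had the highest level of the 4 receptors per kilobase of exon in microglia, at 1200 ± 102 RPKM in sham, followed by Csf3r at 157 ± 19.6. Csf2rb at 18.7 ± 1.65 and Csf2ra at 17.6 ± 4.29 RPKM overlapped. In sham microglia Csf1r stood at 7879, 6776, 7002, 6309.8 and 6669 CPM. In FPI microglia it stood at 7052, 6387, 6000.4, 6627 and 7666 CPM. The ranges overlapped almost throughout, and the means were 6927 ± 588 and 6746 ± 640 CPM. The log2 fold change with FPI was -0.02 (SE 0.13, 95% interval -0.29 to 0.24), with an adjusted p of 0.978 (edgeR).

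In the astrocyte libraries Csf1r was at 51, 29, 9, 5 and 10 reads in sham and at 274, 121, 17, 53 and 239 reads in FPI. As levels these were 2.40 ± 2.56 CPM in sham and 18.0 ± 15.1 CPM in FPI, with 3 of 5 FPI libraries above every sham library. These 3 were libraries 1, 2 and 5, and libraries 2 and 5 share an animal number, so they may not be separate animals. The log2 fold change was 2.96 (SE 0.80, 95% interval 1.21 to 4.71). It did not pass the threshold in the fit of the astrocyte libraries (adjusted p = 0.999, edgeR), but it was called with DESeq2 (adjusted p = 0.0300) and in a fit of all 20 libraries (adjusted p = 0.0390). These fits took libraries 2 and 5 as separate animals. Over 10 alternative settings, these 2 and libraries 2 and 5 summed among them, it ranged from 2.71 to 3.52 and was called in 2. Microglial markers were also higher in the FPI astrocyte libraries. Csf1r in astrocytes was 0.0351% of its microglial mean in sham and 0.263% in FPI. Cx3cr1, the fractalkine receptor of microglia, went from 0.0220% to 0.226%, and Itgam, which encodes CD11b, from 0.0311% to 0.384%. The sum of the 8 microglial markers was 0.812% ± 0.175 of its microglial mean in sham and 1.04% ± 0.265 in FPI, with all 8 detected in both groups. The part of such admixture in the Csf1r difference was not tested. The 3′ end of Csf1r overlaps Hmgxb3 on the opposite strand, and Hmgxb3 had 162 to 467 reads in the astrocyte libraries, at 36.1 CPM in sham and 30.9 CPM in FPI.

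**Figure D2:**
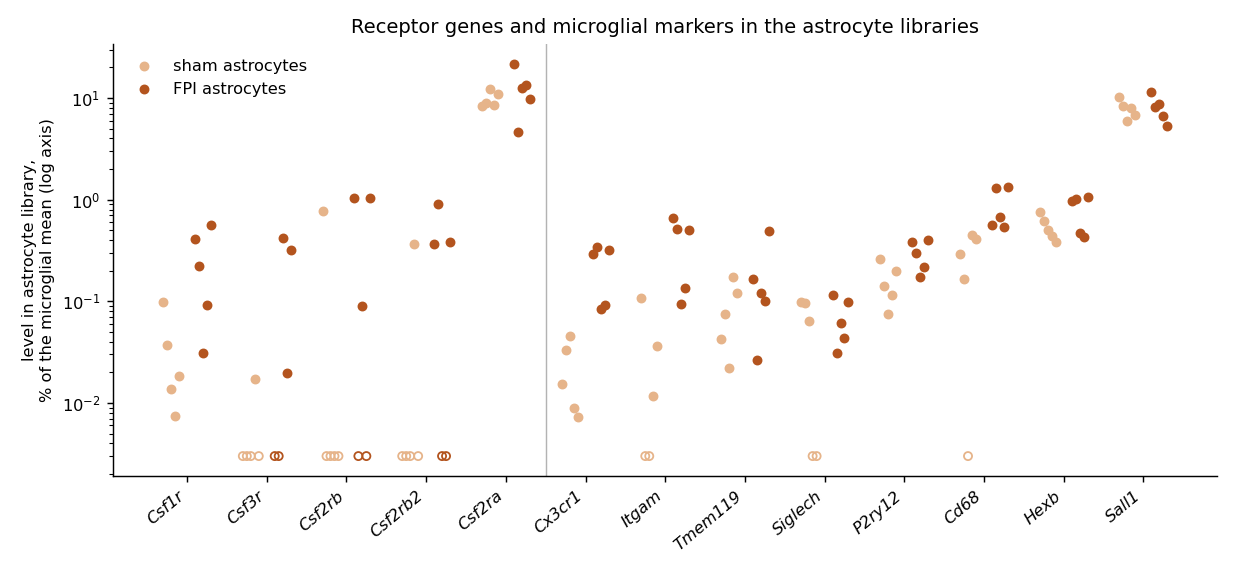
Level of each gene in the 10 astrocyte libraries as a percentage of its mean over the 10 microglia libraries, on a log axis; receptor genes are left of the line and microglial markers right of it, and open circles at the bottom are libraries with no read. Csf1r lay in about the range of Cx3cr1 and Itgam, while Csf2ra lay far above most of the microglial markers and beside Sall1.

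Csf2ra (chromosome 19, 61223957 to 61228429, minus strand), the chain that binds GM-CSF, was the receptor with the smallest difference between the cell types. In sham microglia it stood at 38.9, 48.8, 38.8, 63.2 and 63.4 CPM, and in FPI microglia at 77.2, 77.1, 71.3, 69.01 and 52.5 CPM. FPI microglia were above every sham library in 4 of 5 cases, and FPI library 5 lay inside the sham range. The means were 50.6 ± 12.3 and 69.4 ± 10.1 CPM, a log2 fold change of 0.47 (SE 0.16, 95% interval 0.13 to 0.82). That did not pass the threshold over all genes (adjusted p = 0.194, edgeR).

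In astrocytes Csf2ra was at 5.05, 5.40, 7.42, 5.13 and 6.57 CPM in sham, which rested on 38 to 71 reads a library. In FPI astrocytes it was at 13.1, 2.75, 7.60, 7.98 and 5.91 CPM. The FPI libraries lay on both sides of the sham range, and the log2 fold change of 0.37 (SE 0.37, 95% interval -0.42 to 1.16) was not called (adjusted p = 0.999, edgeR). The astrocyte level was 9.85% ± 1.73 of the microglial mean in sham and 12.4% ± 6.26 in FPI. Of the 8 microglial markers only Sall1, a transcription factor, was at a like share (7.85% and 8.09%); the other 7 were at or below 0.884% on average in each group. Microglia were higher than astrocytes by 3.15 on the log2 scale (SE 0.20, adjusted p = 8.03e-12, edgeR).

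Csf2rb (chromosome 15, 78325752 to 78353847, plus strand), the signalling chain that GM-CSF, IL-3 and IL-5 receptors share, did not follow its α chain into the astrocytes. Mice have a second copy next to it, Csf2rb2 (chromosome 15, 78282507 to 78305721, minus strand), whose product serves IL-3. The coding sequences are 95.2% identical over 2628 aligned bases, with 125 differences and 4 gaps in the GENCODE M21 transcripts. Of all stretches of 150 bases in the coding sequence of Csf2rb, the read length used, 6.50% occur unchanged in Csf2rb2, so a small part of the reads could not be told apart. The 60 coding bases with the most differences show how most reads can be assigned. They are bases 304 to 363 of the Csf2rb and 307 to 366 of the Csf2rb2 coding sequence, 5′ to 3′ on the coding strand, with the 13 bases that differ in capitals.
Csf2rb: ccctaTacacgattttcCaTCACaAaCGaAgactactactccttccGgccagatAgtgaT
Csf2rb2: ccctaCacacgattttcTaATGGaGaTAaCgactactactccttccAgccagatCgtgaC
The longest identical run is 242 bases, coding bases 2083 to 2324 in both genes, and its first 60 bases, the same in both, are shown because a read that lies wholly in this run matches either gene.
Csf2rb and Csf2rb2: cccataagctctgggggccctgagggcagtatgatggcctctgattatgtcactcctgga

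Csf2rb had 1.41 to 1.93 times as many reads as Csf2rb2 in each of the 10 microglia libraries. Its exons are also longer, 7277 bases beside 4740. Per kilobase of exon the ranges of the 2 genes overlapped. Csf2rb and Csf2rb2 were at 18.7 ± 1.65 and 17.8 ± 1.95 RPKM in sham microglia. In FPI microglia they were at 19.2 ± 1.45 and 17.5 ± 1.77 RPKM. In sham microglia Csf2rb stood at 130.5, 125, 129.8, 139 and 155 CPM, and in FPI microglia at 125, 143, 136, 143 and 154 CPM. The 2 groups covered the same range, and the means of 136 ± 11.97 and 140.0 ± 10.6 CPM gave a log2 fold change of 0.06 (SE 0.12, 95% interval -0.18 to 0.30, adjusted p = 0.925, edgeR). Csf2rb2 likewise showed no call, at -0.01 (SE 0.13, 95% interval -0.27 to 0.25, adjusted p = 0.991, edgeR). In astrocytes Csf2rb had 8, 0, 0, 0 and 0 reads in sham and 14, 0, 1, 0 and 9 in FPI, below the count filter (exact permutation test over libraries, 2-sided p = 0.286). The log2 difference of microglia from astrocytes was 8.66 for Csf2rb (SE 0.46, adjusted p = 4.21e-13, edgeR) beside 3.15 for Csf2ra, and these 2 differences were not tested against each other. Per kilobase of exon, sham astrocytes had 2.06 ± 0.362 RPKM of the α chain and 0.0292 ± 0.0653 RPKM of the β chain, in which 4 of 5 libraries had no read.

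Csf3r (chromosome 4, 126024550 to 126044440, plus strand) encodes the receptor through which G-CSF drives the production of neutrophils. In sham microglia it stood at 558, 551, 460.2, 618 and 643 CPM, and in FPI microglia at 671, 645, 709.6, 594 and 514 CPM. FPI libraries 1 to 3 were above every sham library and FPI libraries 4 and 5 were not. The means were 566 ± 70.8 and 627 ± 75.7 CPM, with a log2 fold change of 0.16 (SE 0.12, 95% interval -0.09 to 0.41, adjusted p = 0.736, edgeR). Markers of neutrophils, the blood cells with most of this receptor, were low in the same libraries. The 8 of them summed to between 0.308 and 24.9 CPM in the microglia, and Ly6g, which defines the lineage in mice, had no read in any group.

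Astrocytes had 1 Csf3r read in sham and 33 in FPI, of which 20 were in library 3 and 12 in library 5 (exact permutation test, 2-sided p = 0.167). In microglia Csf3r had 6.57% to 11.8% as many reads as Csf1r. In FPI astrocyte library 3 it had 20 reads beside 17 of Csf1r, and in library 1 it had 0 beside 274 of Csf1r. The log2 difference between the cell types was the largest of the 5 genes, at 11.72 (SE 0.50, adjusted p = 1.26e-14, edgeR). For the genes with least reads in astrocytes this difference rested on single libraries. Without sham astrocyte library 4 it was 12.39 for Csf3r and 10.35 for Csf2rb2 in place of 9.12, and without sham astrocyte library 1 it was 10.49 for Csf2rb. For Csf1r it was 10.04 (SE 0.54, adjusted p = 4.47e-13), between 9.92 and 10.40 with any 1 library left out.

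FPI gave no call among the receptors in microglia: 0 of the 4 members that passed the count filter, with 1 at an unadjusted p below 0.05 (Csf2ra) and 0 called by DESeq2. The background was 2.35% of 12143 genes called, 259 up and 26 down. The median log2 fold change of the 4 was 0.11, beside -0.01 for all genes tested. In no member were the FPI libraries all above or all below the sham libraries, which was so for 3.22% of genes in microglia and 0.677% in astrocytes. In astrocytes 0 of the 3 members that passed the filter were called by edgeR, against 0.00728% of 13741 genes, which is 1 gene. Csf1r alone had an unadjusted p below 0.05, and it was the member that DESeq2 called.

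**Figure D3:**
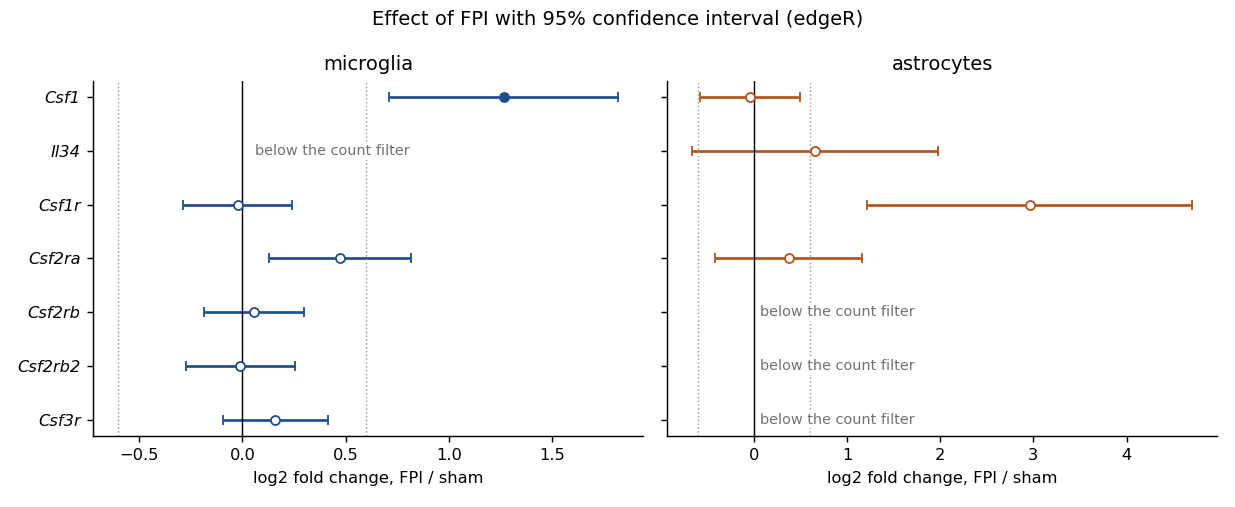
Log2 fold change of FPI over sham with its 95% confidence interval for each ligand and receptor, in microglia (left) and astrocytes (right; the 2 x axes differ); filled points are called, open points are not, and dotted lines mark 0.6 in either direction. Csf1 in microglia was the one filled point, and the Csf1r interval in astrocytes, 1.21 to 4.71, was wide but clear of 0.

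Il34 (chromosome 8, 110741829 to 110805924, minus strand) was found almost only in the astrocyte libraries. Sham astrocytes stood at 3.05, 20.1, 12.9, 24.4 and 31.3 CPM. FPI astrocytes stood at 4.95, 22.0, 21.1, 29.9 and 65.2 CPM. Library 1 was the lowest of each group and FPI library 5 stood above all others. The means of 18.4 ± 10.9 and 28.6 ± 22.4 CPM gave a log2 fold change of 0.66 (SE 0.61, 95% interval -0.66 to 1.98, adjusted p = 0.999, edgeR), without FPI library 5 it was 0.08, and with FPI libraries 2 and 5 summed it was 0.40. Each FPI library was above the sham library of the same number, though the numbers were not taken to pair the samples. A fit with a replicate block, given in the last section, had a smaller SE and did not call Il34 either. Microglia had 32 Il34 reads in all, of which 13 were in sham library 4 and 16 in FPI library 1, with 6 of 10 libraries at 0. Sham and FPI microglia had 16 reads each (exact permutation test, 2-sided p = 0.683). The log2 difference of microglia from astrocytes was -5.87 (SE 0.73, adjusted p = 2.64e-07, edgeR), -8.26 without FPI microglia library 1 and -6.82 without sham microglia library 4. The 2 antisense genes that lie within Il34 had at most 5 reads in a library.

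The Il34 level of an astrocyte library did not go with the sum of its astrocyte markers. The gene whose log2 CPM was most like that of Il34 over the 10 libraries, of 13740 compared, was Myh11, the myosin heavy chain of smooth muscle (Pearson's r = 0.986), followed by Ptrf, a coat protein of caveolae (0.985), and Tnfrsf21, a death receptor (0.983). Myh11 ran from 6.37 to 84.3 CPM in sham and from 8.35 to 128 CPM in FPI, lowest in the libraries numbered 1 and highest in those numbered 5, as Il34 was. These are correlations picked as the highest of many over 10 libraries that share a sort, and they carry no test. The 6 endothelial markers summed to 22.0, 382, 109, 193 and 402 CPM in sham and to 73.8, 208, 342, 205 and 332 CPM in FPI. The 6 markers of oligodendrocyte precursors summed to 399, 363, 289, 680.0 and 752 CPM in sham and to 324, 522, 464, 834 and 1365 CPM in FPI. The sum of the 8 astrocyte markers, of which Slc1a2 is the largest part, instead was highest in the libraries numbered 1, at 28209 CPM in sham and 29319 CPM in FPI. Gfap, one of the 8, was highest in the libraries numbered 5, as Il34 was, at 408 CPM in sham and 1289 CPM in FPI. The 8 neuronal markers summed to between 8.88 and 31.3 CPM. How much of the Il34 came from cells other than astrocytes was not tested.

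**Figure D4:**
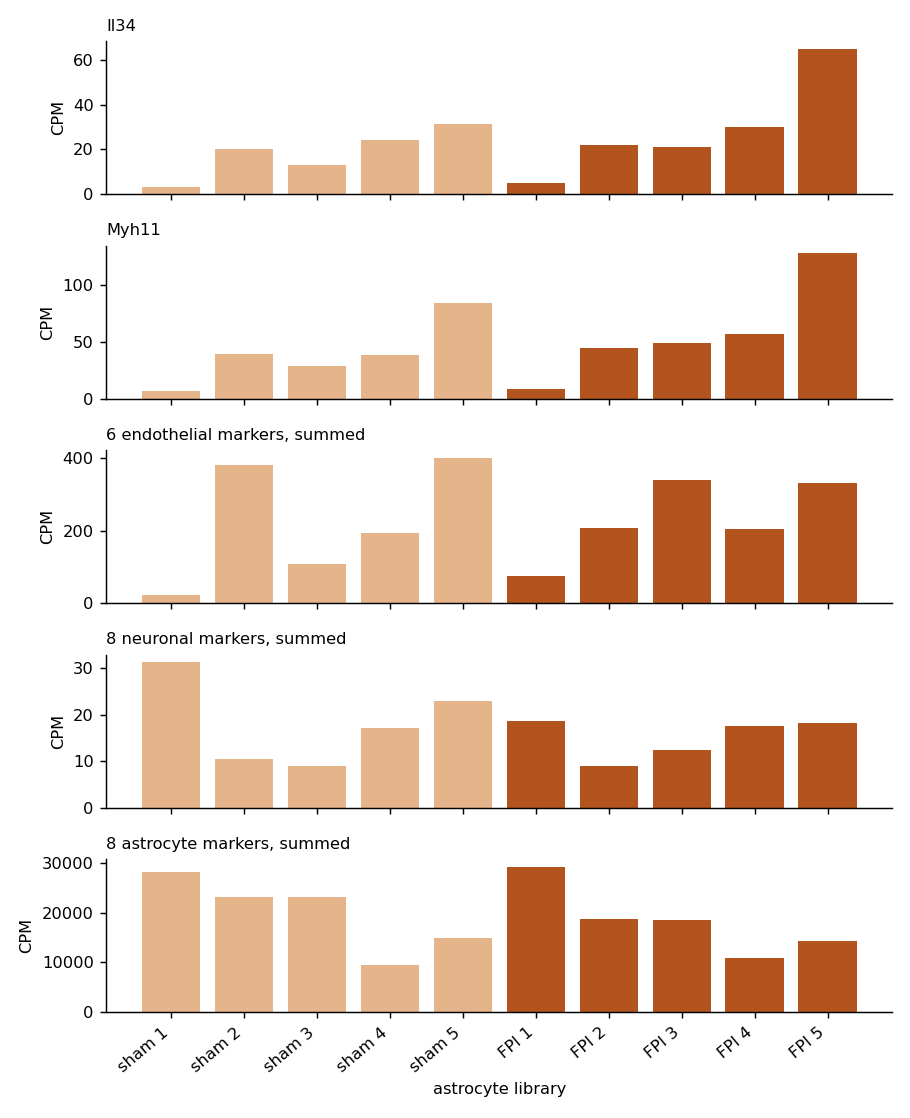
Il34, Myh11 and the summed markers of endothelial cells, neurons and astrocytes in each of the 10 astrocyte libraries, in CPM with axes from 0; light bars are sham and dark bars FPI. Il34 and Myh11 were both lowest in the libraries numbered 1 and highest in those numbered 5 of each group, while the astrocyte marker sum was highest in the libraries numbered 1.

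Csf1, the other ligand of the receptor (chromosome 3, 107741048 to 107760469, minus strand), was the ligand or receptor called with FPI when each cell type was fitted by edgeR, and the call was in microglia. It stood at 37.5, 33.3, 44.5, 53.6 and 62.3 CPM in sham microglia and at 123, 124, 190.5, 66.1 and 49.7 CPM in FPI microglia. FPI libraries 1 to 4 were above every sham library, the first 3 by far, and library 5 was not. The means were 46.2 ± 11.8 and 110.5 ± 55.7 CPM. The log2 fold change was 1.26 (SE 0.27, 95% interval 0.71 to 1.82, adjusted p = 0.0124, edgeR), rank 126 of 12143 genes. In astrocytes Csf1 was at 87.8 ± 24.4 CPM in sham and 83.4 ± 23.1 CPM in FPI, with a log2 fold change of -0.05 (SE 0.25, 95% interval -0.58 to 0.49, adjusted p = 0.999, edgeR).

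Csf1 thus did not separate the cell types as Il34 did. The difference of microglia from astrocytes over both conditions was -0.26 on the log2 scale (SE 0.21, adjusted p = 0.277, edgeR). That average covers means in opposite directions. In sham, astrocytes were at 87.8 CPM and microglia at 46.2 CPM, and 1 range reached into the other. In FPI, astrocytes were at 83.4 CPM and microglia at 110.5 CPM. The cell types were not tested within a condition. Per kilobase of exon, sham astrocytes held 16.6 ± 4.61 RPKM of Csf1 beside 9.38 ± 5.54 RPKM of Il34. Sham microglia held 8.75 ± 2.24 RPKM of Csf1, and FPI microglia 20.9 ± 10.5 RPKM. The ligands of the other receptors, Csf2 (GM-CSF), Csf3 (G-CSF), Il3 and Il5, had 0 reads in all 20 libraries, which allows up to 0.0363 CPM in the pooled microglia libraries and 0.0343 CPM in the pooled astrocyte libraries from counting error alone.

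The Csf1 difference was not the same in all microglia animals. The library names carry 2 forms of animal number, one in replicates 1 to 3 of both conditions and the other in replicates 4 and 5; what the forms stand for is not given in the sources used here, and the split was made after the data were seen. In replicates 1 to 3 Csf1 went from 38.4 ± 5.64 to 146 ± 38.8 CPM (n = 3 each), which was 1.91 on the log2 scale (SE 0.20, adjusted p = 7.12e-06, edgeR). In replicates 4 and 5 it stood at 57.9 ± 6.18 and 57.9 ± 11.6 CPM (n = 2 each), which was 0.04 on the log2 scale (SE 0.24, adjusted p = 0.976, edgeR). The difference between the 2 was 1.88 (SE 0.31, adjusted p = 0.0399), and Csf1 and Gfap were the 2 genes of 12143 for which it passed.

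Csf2ra and Csf3r also lay higher with FPI in replicates 1 to 3, without overlap, and did not in replicates 4 and 5. The share of all genes without overlap in replicates 1 to 3 is not given here. Csf2ra went from 42.1 ± 5.74 to 75.2 ± 3.36 CPM in replicates 1 to 3 and was called there (log2 fold change 0.84, SE 0.17, adjusted p = 0.00871, edgeR). In replicates 4 and 5 it stood at 63.3 ± 0.160 in sham and 60.8 ± 11.7 CPM in FPI (log2 fold change -0.02, SE 0.21), and the difference of the 2 effects was 0.86 (SE 0.27, adjusted p = 0.321, edgeR). Csf3r gave 0.36 (SE 0.13, adjusted p = 0.172) in replicates 1 to 3 and -0.15 (SE 0.16) in replicates 4 and 5, a difference of 0.51 with an adjusted p of 0.385. Csf1r had -0.16 (SE 0.14) and 0.18 (SE 0.17), and Csf2rb had 0.06 and 0.05. No call for Csf2ra or Csf1 was seen in replicates 4 and 5, where 62 genes of all those tested were called, against 396 in replicates 1 to 3.

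**Figure D5:**
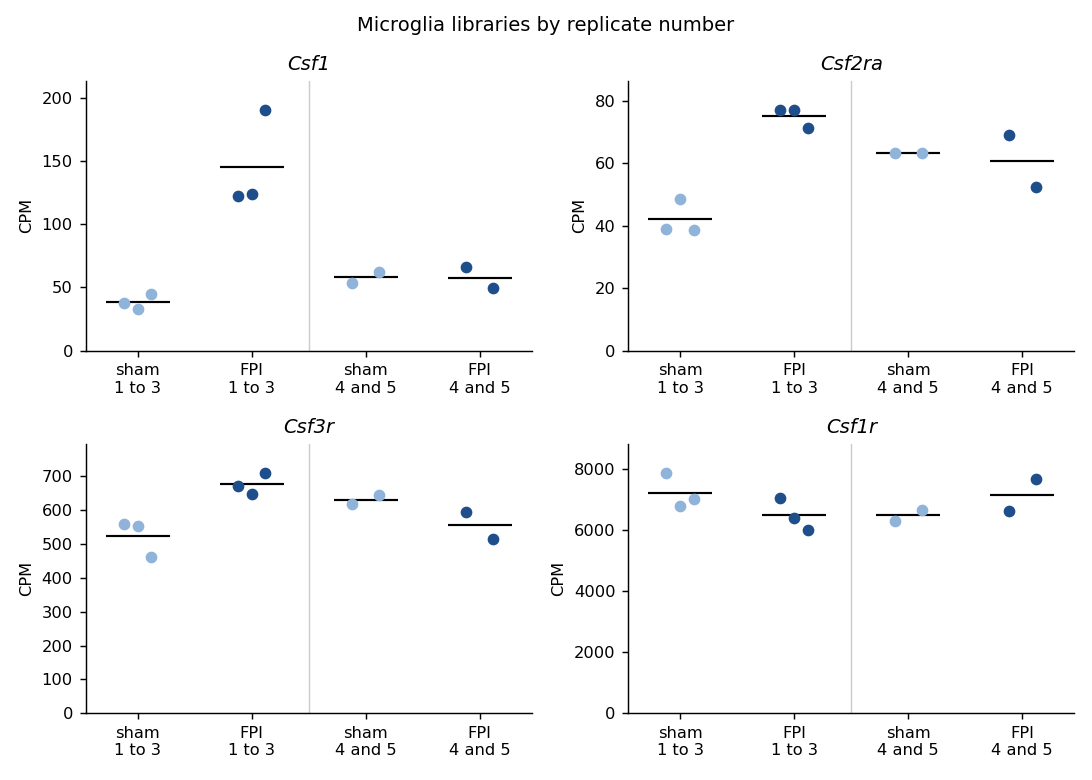
Csf1, Csf2ra, Csf3r and Csf1r in the 10 microglia libraries, in CPM with axes from 0; points are libraries, black lines are means, and the grey line parts replicates 1 to 3 from replicates 4 and 5. In the first 3 replicates FPI lay above sham without overlap for Csf1, Csf2ra and Csf3r, while in replicates 4 and 5 FPI lay around sham for Csf1 and Csf2ra and below it for Csf3r.

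Markers of other cells moved along with this split. The 8 markers of monocytes and border macrophages summed to between 302 and 454 CPM in sham replicates 1 to 3 and to between 142 and 269 CPM in FPI replicates 1 to 3, but to between 21.2 and 63.8 CPM in replicates 4 and 5 of both conditions. The 8 astrocyte markers summed to between 255 and 324 CPM in sham and between 354 and 579 CPM in FPI in replicates 1 to 3, and to between 242 and 352 CPM in replicates 4 and 5. Gfap, the filament protein of astrocytes, went from 2.74 to 59.5 CPM in replicates 1 to 3 and from 11.6 to 15.8 CPM in replicates 4 and 5. The part of these cells in the Csf1 and Csf2ra differences was not tested.

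The genes around the receptors mostly showed no call. Of 58 pathway genes on fixed lists, 49 passed the count filter in microglia and 1 of them, Csf1, was called, with 5 higher and 1 lower at an unadjusted p below 0.05. Among all 12143 genes 2.35% were called and 1377 had such a p, so these shares were near the background. Their median log2 fold change was 0.00, beside -0.01 for all genes. Among the other receptors Il3ra, the α chain of the IL-3 receptor, had at most 30 reads in a microglia library, and Il5ra, that of the IL-5 receptor, had 3 reads in all, in 1 FPI astrocyte library. Ptprz1, a phosphatase that also binds IL-34, was at 1261 ± 511 CPM in sham and 1151 ± 535 CPM in FPI astrocytes, and at 7.04 ± 2.099 and 12.3 ± 5.94 CPM in sham and FPI microglia. Sdc1, a proteoglycan that binds IL-34 as well, had at most 40 reads in an astrocyte library.

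None of the 19 genes of proximal signalling, 8 tested negative regulators, 6 transcription factors of the Csf1r locus or 8 survival and cell cycle targets was called in microglia. Some are named here for their values, chosen after these were seen. Fgr, a kinase of the Src family, differed by 1.06 on the log2 scale (SE 0.41, adjusted p = 0.259, edgeR) with 3.00 to 15.2 CPM in sham and 9.35 to 27.0 CPM in FPI. Tyrobp, the adaptor DAP12 that CSF1R signalling engages in macrophages, had 0.34 (SE 0.14, adjusted p = 0.308), and Stat5b, a transcription factor that cytokine receptors activate, had -0.30 (SE 0.13, adjusted p = 0.393). Spi1, which encodes PU.1 and drives the receptor gene in macrophages, had -0.22 (SE 0.12) and Irf8, its partner, 0.16 (SE 0.10).

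In astrocytes 0 of 42 pathway genes were called by edgeR, with 3 at an unadjusted p below 0.05 and 2 called by DESeq2. Over all 13741 genes edgeR called 0.00728%, 319 had such a p, and DESeq2 called 39. The 3 were Csf1r, Syk and Socs3. Socs3, the feedback inhibitor of cytokine receptors, was at 2.12 to 6.88 CPM in sham and 7.97 to 22.4 CPM in FPI, so that the groups did not overlap (log2 fold change 1.55, SE 0.40, adjusted p = 0.999, edgeR). Syk, a kinase of myeloid cells, had 3 to 15 reads in sham and 8 to 20 in FPI. The microglial level of Socs3 was higher by 3.96 on the log2 scale (SE 0.27).

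Between the cell types 42 of 53 pathway genes were called, 36 higher in microglia and 6 higher in astrocytes, which is 79.2% beside 64.2% of all genes tested. By role these were 6 of 8 receptors higher in microglia with Ptprz1 and Sdc1 higher in astrocytes, 14 of 19 signalling genes, 7 of 10 negative regulators and 5 of 6 transcription factors higher in microglia. Spi1 was higher in microglia by 9.03, Irf8 by 7.64 and Runx1 by 6.59 on the log2 scale. The survival and cell cycle targets were split, with 4 higher in microglia and 2 higher in astrocytes of 8.

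Whether the effect of FPI differed between the cell types was tested by the interaction of cell type and injury over 20 libraries, where 0.199% of 15077 genes passed (adjusted p below 0.1). None of the 5 members passed with edgeR, while 2 had an unadjusted p below 0.05, as had 1058 of all 15077 genes. The same 2, Csf1r and Csf3r, were called by DESeq2, whose count over all genes in the interaction is not given here. For Csf1r the microglial minus the astrocyte effect was -2.97 (SE 0.79, adjusted p = 0.209, edgeR), and for Csf3r it was -4.42 (SE 1.28, adjusted p = 0.290). For Csf2ra it was 0.11 (SE 0.38, 95% interval -0.69 to 0.91), for Csf2rb -1.62 (SE 1.05) and for Il34 -0.50 (SE 1.52). For Csf1 it was 1.33 (SE 0.43, adjusted p = 0.404), so a difference of the cell types in Csf1 was not called although microglia alone passed. Spi1 was the pathway gene that passed, at -4.55 (SE 0.87, adjusted p = 0.0324). In astrocytes it had 0, 0, 3, 0 and 0 reads in sham and 33, 14, 0, 9 and 9 in FPI, beside 1005 to 2768 reads in the microglia, and the microglial markers of those libraries are given above with Csf1r.

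Over the 10 microglia libraries the genes whose log2 CPM was most like that of a receptor, of 12142 compared and with no test, were Nup50, Agpat2 and Laptm5 for Csf1r (Pearson's r from 0.935 to 0.968). For Csf2ra they were Asph, Il4i1 and Gm12216 (0.926 to 0.940), for Csf2rb Rps15, Gm10177 and Ccl9 (0.897 to 0.902), and for Csf3r Lyst, Gm12905 and Trak1 (0.939 to 0.946). Of these Laptm5, a lysosomal membrane protein of blood cells, was like Csf1r in its difference between the cell types too, at 1709.6 CPM in sham microglia and 0.923 CPM in sham astrocytes.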

How the data were processed

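RNA was measured in 20 libraries of sorted microglia and astrocytes, made with a stranded total RNA kit and read as pairs of 150 bases. The authors deposited whole-number counts of reads per gene, not normalized, made with HISAT2 2.1.0 and featureCounts on GRCm38 per the labels; whether counting used strand is not given in the sources used here, and the study's own tests rested on other estimates. The 5 members and the pathway and marker lists were chosen with earlier results of these data known.

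Within each cell type the counts were fitted with edgeR's quasi-likelihood test (default expression filter, TMM scaling, Benjamini-Hochberg adjustment over all genes). Microglia against astrocytes and the interaction were fitted over all 20 libraries. A call needed an adjusted p below 0.1 and an absolute log2 fold change above 0.6, or the adjusted p alone for the interaction. Genes below the filter were tested by an exact permutation over libraries on log2(CPM + 0.5). Named besides the members were the other ligands and receptors, pathway genes called with FPI, and the 3 genes most correlated with each member; exceptions are marked. Exonic lengths, positions and sequences came from GENCODE M21, to which 37693 identifiers matched. The 58 pathway genes and all members matched. Replicates are separate animals except that FPI astrocyte libraries 2 and 5 share an animal number; 3 animals gave both cell types, and neither was modelled. Intervals on single counts cover counting error only. The fits were tested on simulated counts. Alternatives were DESeq2, other scalings, filters and spreads, a replicate block and leaving out each library; estimates apart by animal number form, and without both astrocyte libraries numbered 1, were added after the data were seen.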

Additional observations from a re-analysis of the deposited data

Results flagged for a closer look

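Among 24 sets of 5 libraries (a gene in a group), 4 had a library far from the other 4, beyond the 95% limit of Dixon's test, which chance passes in about 1 in 20 for values without ties. All 4 were genes in the cell type where they were near 0, and in 3 of them the other 4 libraries had no read, so that any read at all would pass and the limit says nothing there. Il34 stood at 1.48 CPM in sham microglia library 4 (13 reads) and at 1.87 CPM in FPI microglia library 1 (16 reads), with at most 2 reads in any other microglia library. Csf2rb stood at 1.06 CPM in sham astrocyte library 1 (8 reads) and Csf3r at 0.103 CPM in sham astrocyte library 4 (1 read), with no read in the other sham astrocyte libraries.

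The effect of FPI on Csf1 in microglia differed between replicates 1 to 3 and replicates 4 and 5, by 1.88 on the log2 scale (adjusted p = 0.0399, edgeR, over 12143 genes). All 3 FPI libraries of the first form of animal number were above their 3 sham libraries, while in the second form 1 of 2 was above. The split was made after the data were seen, the second form has 2 libraries a condition, and the form of the animal number cannot be told apart from whatever else differed between those animals.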

How the results depend on the processing

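In microglia, replicates 1 to 3 alone gave 1 member (Csf2ra) and 3 pathway genes called, and replicates 4 and 5 alone gave 0 pathway genes. Csf1r was then 0.18, Csf2ra -0.022 and Csf3r -0.15 (log2) in replicates 4 and 5, and Csf2rb2 0.050 in replicates 1 to 3. Testing every gene with at least 1 count called 2 pathway genes (Csf1 and Fgr), and with 10 counts in every library Csf2rb2 was 0.0019. In astrocytes DESeq2 and the fit of all 20 libraries each called 1 member (Csf1r) and 2 pathway genes. With the FPI astrocyte libraries 2 and 5 summed as 1 animal Csf1 was 0.00012 in astrocytes and the Csf2ra interaction -0.028; without both astrocyte libraries numbered 1 they were 0.012 for Csf1 and -0.0081 for Csf2ra in astrocytes. A minimum of 10 counts in every library left 1 member called between cell types, Csf2ra, because the other 4 were not tested. For the interaction, DESeq2 and the replicate block each called 2 members (Csf1r and Csf3r), and 1 was called without the astrocyte libraries of animals that gave both cell types. The shares of all genes called for the interaction in these settings are not given here. Without the microglia libraries of those animals the Csf2ra interaction was -0.087.

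With 1 library left out, pathway genes called in microglia ranged from 1 to 2 and members in the interaction from 0 to 1 (Csf1r, without sham library 1 or FPI library 3 of the astrocytes). The log2 fold change ranged from -0.094 to 0.038 for Csf1r and -0.077 to 0.033 for Csf2rb2 in microglia, and from -0.18 to 0.076 for Csf1 in astrocytes, and the interaction from -5.34 to 1.46 for Il34 and -0.13 to 0.42 for Csf2ra. Csf1 in microglia stayed called in all 10, from 1.00 to 1.44. The replicate numbers were not taken to pair the samples: same-numbered libraries correlated at -0.07 to 0.09 in microglia, where 3 of 10 were most like their own number, and at -0.01 to 0.45 in astrocytes, where 7 of 10 were. With the replicate block Csf1 in microglia was 1.18 (adjusted p = 0.0447), and in astrocytes Il34 was 0.59 (SE 0.18, adjusted p = 0.822) and Csf1r 2.87 (SE 0.47, adjusted p = 0.120). The cause of these shifts was not tested. In their low cell type Csf2rb, Csf3r and Il34 rested on 1 to 33 reads a group.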
